A study of Homo sapiens with 14 samples.

Results

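Intervals at divergent gene starts are ChIP-seq intervals listed with 2 or more genes on opposite strands, where the start of the minus-strand gene lies at or below that of the plus-strand gene, so that the genes run away from each other. The rule used positions and strands only, not measured values. It took 7398 of the 152412 distinct intervals in the 4 separate lists of the series. Where an interval had several such pairs, the pair with the closest starts stood for it. Only 38.8% to 49.8% of the intervals of a list touched the stretch between the starts, so the set is called intervals at divergent gene starts and not intervals between them.

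Chromatin immunoprecipitation with sequencing was done in DLD-1, an established colorectal adenocarcinoma line, with antibodies against the transcription factors STAT5 and BCL6. Activator STAT5 libraries (n = 2) came from cells transfected with pEGFP-C1199Tiam1, a plasmid for part of TIAM1, and given vehicle, a treatment labelled as RAC1/PAK1 activation. Inhibitor BCL6 libraries (n = 3) came from cells with the same plasmid and 20 microM EHT 1864 for 16 h, labelled as RAC1/PAK1 inhibition. Control STAT5 (n = 2) and control BCL6 (n = 2) libraries came from cells with the empty vector. All groups were transiently transfected and were taken for ChIP 20 h after transfection, and the share of cells that took up the plasmid was not given in the sources used here.

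A divergent pair is a common arrangement in mammalian genomes, in which 1 stretch of open, GC-rich DNA serves as the promoter of both genes. Such pairs are known for holding many DNA repair, chromatin and housekeeping genes, and for pairing coding genes with antisense RNAs. STAT5 binds DNA downstream of JAK kinases and is known mainly as an activator of transcription, while BCL6 is a repressor that recognises a similar sequence.

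To show what lies between such starts, the RefSeq promoters (GRCh38.p14, plus strand, 250 bases before to 50 bases after the start of the plus-strand gene) of 5 pairs described here are printed. DHX57/MORN2 and CINP/TECPR2 had an interval in all 4 lists, EIF2B1/GTF2H3 and APTX/DNAJA1 hold DNA repair genes, and HIST1H2BJ/HIST1H2AG is a histone pair. Capitals mark the bases between the RefSeq starts of the pair. The windows are chr2:38875726-38876025 for DHX57/MORN2, chr14:102362691-102362990 for CINP/TECPR2, chr12:123633579-123633878 for EIF2B1/GTF2H3, chr9:33025023-33025322 for APTX/DNAJA1 and chr6:27132793-27133092 for HIST1H2BJ/HIST1H2AG.
DHX57/MORN2: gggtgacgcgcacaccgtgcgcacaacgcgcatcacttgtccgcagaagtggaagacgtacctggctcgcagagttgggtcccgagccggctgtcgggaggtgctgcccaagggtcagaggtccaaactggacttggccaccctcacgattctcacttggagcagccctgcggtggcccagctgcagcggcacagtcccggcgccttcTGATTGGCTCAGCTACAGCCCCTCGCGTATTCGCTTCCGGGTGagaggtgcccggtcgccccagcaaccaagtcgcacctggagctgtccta
CINP/TECPR2: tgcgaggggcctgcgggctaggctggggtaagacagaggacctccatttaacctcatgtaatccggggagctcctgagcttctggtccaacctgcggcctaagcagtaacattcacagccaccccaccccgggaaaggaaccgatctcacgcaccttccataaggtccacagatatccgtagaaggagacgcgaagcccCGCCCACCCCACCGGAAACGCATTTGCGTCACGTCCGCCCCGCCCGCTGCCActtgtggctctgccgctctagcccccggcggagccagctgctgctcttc
EIF2B1/GTF2H3: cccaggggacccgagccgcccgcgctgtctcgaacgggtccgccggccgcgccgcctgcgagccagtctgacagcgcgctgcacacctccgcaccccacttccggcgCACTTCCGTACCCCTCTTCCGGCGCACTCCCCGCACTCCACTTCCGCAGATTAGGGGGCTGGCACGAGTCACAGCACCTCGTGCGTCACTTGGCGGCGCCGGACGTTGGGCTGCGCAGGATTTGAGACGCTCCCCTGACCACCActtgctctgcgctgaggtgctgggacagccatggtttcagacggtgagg
APTX/DNAJA1: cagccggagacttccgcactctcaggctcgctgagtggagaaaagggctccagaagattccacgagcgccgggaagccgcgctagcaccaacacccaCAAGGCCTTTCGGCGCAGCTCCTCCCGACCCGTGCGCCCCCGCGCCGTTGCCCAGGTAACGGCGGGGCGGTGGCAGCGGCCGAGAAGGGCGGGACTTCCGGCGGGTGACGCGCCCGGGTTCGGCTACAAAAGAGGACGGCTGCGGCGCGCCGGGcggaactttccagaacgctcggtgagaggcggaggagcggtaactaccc
HIST1H2BJ/HIST1H2AG: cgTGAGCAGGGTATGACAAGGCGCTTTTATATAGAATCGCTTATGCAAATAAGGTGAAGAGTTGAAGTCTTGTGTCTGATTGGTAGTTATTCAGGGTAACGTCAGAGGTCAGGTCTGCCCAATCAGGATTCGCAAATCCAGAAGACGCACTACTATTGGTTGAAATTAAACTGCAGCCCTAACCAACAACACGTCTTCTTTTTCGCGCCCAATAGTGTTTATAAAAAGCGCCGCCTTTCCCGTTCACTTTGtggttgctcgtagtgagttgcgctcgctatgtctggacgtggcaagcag

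The starts of these pairs lie 42, 51, 143, 153 and 248 bp apart in RefSeq, in the order printed, and 29, 26, 134, 44 and 259 bp apart in the Ensembl annotation of the deposited lists. GC content was 65.0%, 62.7%, 69.3% and 69.3% in the first 4 windows and 46.3% in the histone window. The letters TTCNNNGAA, the core that STAT proteins bind, were searched as written (the sequence is its own reverse complement) and occurred in none of these 5 windows. Among all 27305 promoters of the RefSeq table, 7.88% held these letters. Promoters of genes at intervals with starts at most 300 bp apart held them in 8.13% (activator STAT5, 26 of 320 matched symbols), 13.3% (inhibitor BCL6, 4 of 30), 7.01% (control STAT5, 72 of 1027) and 7.74% (control BCL6, 71 of 917). All 4 exact 95% intervals covered the share over the whole table. At starts over 300 bp apart the shares were 7.28% (activator STAT5), 0 of 31 (inhibitor BCL6), 5.86% (control STAT5, 4.56% to 7.40%) and 6.13% (control BCL6, 4.80% to 7.69%), and the intervals of both control lists lay below the share over the table. Median GC content was 64.2% to 65.0% at close starts and 63.3% to 65.0% at starts over 300 bp apart, against 58.3% over all promoters. The median number of CpG sites was 27 to 28 at close starts and 24 to 26 at the others, against 14. GC content was thus about the same at close and at distant divergent starts. The letters were searched in promoter windows and not in the ChIP-seq intervals. At close starts, 9.47% of activator STAT5 and 4% of inhibitor BCL6 intervals touched the stretch between the starts. In control STAT5 and control BCL6 it was 15.9% and 15.7%. The shares of promoters thus do not describe the sequence of the intervals.

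Divergent starts made up a small and similar share of every list. They held 771 of 14047 activator STAT5 intervals (5.49%, exact 95% interval 5.12% to 5.88%) and 67 of 1652 inhibitor BCL6 intervals (4.06%, 3.16% to 5.12%). In cells with the empty vector they held 3390 of 68320 control STAT5 intervals (4.96%, 4.80% to 5.13%) and 3170 of 68393 control BCL6 intervals (4.63%, 4.48% to 4.80%). The 2 control BCL6 libraries differed from each other by more than counting error, with 4.22% (4.01% to 4.43%) and 4.92% (4.71% to 5.13%), whereas the control STAT5 libraries had 5.02% and 4.99%. Those 2 libraries lay farther apart than the control STAT5 and control BCL6 lists did. Treated and control lists also differed in how an interval entered them: every treated interval has a value of at least 2 in each of its libraries, while a control interval needs a value in only 1. The shares thus describe each list and do not compare occupancy between conditions.

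The rule turned on whether 2 genes point away from each other or overlap at their heads. A further 145 activator STAT5, 13 inhibitor BCL6, 758 control STAT5 and 671 control BCL6 intervals had genes on both strands but in the overlapping arrangement. Just inside the rule, a control STAT5 interval at MAGOH, a component of the exon junction complex, had values of 0 and 2 with starts 1 bp apart. Just outside it, a control STAT5 interval at DDX11 and its antisense RNA, whose heads overlap by 1 bp, also had 0 and 2. In the treated lists, the activator STAT5 interval with the smallest distance had 2 and 2 at starts 3 bp apart, and the nearest one left out had 4 and 3 at an overlap of 4 bp. The inhibitor BCL6 interval nearest the boundary had 4, 2 and 4 at a distance of 6 bp, and the nearest one left out, at DPH6 and its antisense RNA, had 4, 2 and 7 at an overlap of 7 bp.

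The starts of a pair were usually close. The median distance was 752 bp at activator STAT5 intervals, 721 bp at inhibitor BCL6 intervals, 860 bp at control STAT5 intervals and 1049 bp at control BCL6 intervals. Single libraries spread almost as widely as the lists did, with 944 and 819 bp in control STAT5 and 1249 and 951 bp in control BCL6. Starts at most 1000 bp apart, the usual definition of a bidirectional promoter, accounted for 56.2% of the activator STAT5, 53.7% of the inhibitor BCL6, 52.9% of the control STAT5 and 48.5% of the control BCL6 intervals at divergent starts. The largest distance was 5611 bp in activator STAT5, between VTN, which codes for vitronectin, and an unnamed gene. Distances are bounded by the deposited lists, which go from 3000 bp upstream to 1000 bp downstream of a start.

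**Figure D1:**
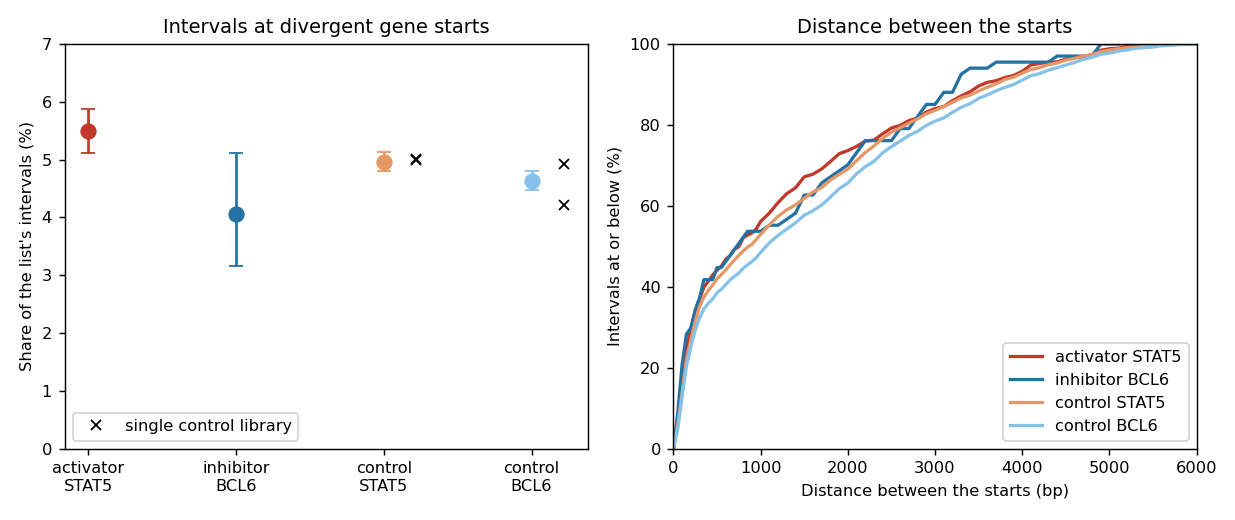
Left, share of each list's distinct intervals (%) at divergent gene starts, as points with exact 95% intervals, and crosses for single control libraries; right, share of these intervals (%) whose starts lie at most the given distance (bp) apart. The shares lie between 4.06% and 5.49%, the crosses of control BCL6 stand apart at 4.22% and 4.92%, and the distance curves of the 4 lists run close together.

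Both genes were protein-coding in 236 of 645 distinct pairs of the activator STAT5 list (36.6%), 20 of 61 of inhibitor BCL6 (32.8%), 703 of 2172 of control STAT5 (32.4%) and 674 of 2090 of control BCL6 (32.2%). A coding gene faced a gene without a symbol in the deposited list in 31.9% to 37.7% of pairs. Such genes are called unnamed here. At starts at most 300 bp apart, intervals had coding genes on both sides in 49.5% of cases in activator STAT5, 52.0% in inhibitor BCL6, 46.4% in control STAT5 and 46.0% in control BCL6. At starts over 1000 bp apart the shares were 26.0%, 19.4%, 21.3% and 22.5% in the same order of lists. A gene facing its own antisense RNA, such as HAND2 and HAND2-AS1, made up 20 activator STAT5, 3 inhibitor BCL6, 67 control STAT5 and 63 control BCL6 pairs.

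In the control lists, a smaller share of interval midpoints lay around the middle of close starts than around single gene starts. Counted by midpoint, the 200 bp around the middle of close starts held 15 of 171 activator STAT5 intervals within 700 bp (8.77%), 1 of 14 inhibitor BCL6 intervals (7.14%), 69 of 721 control STAT5 intervals (9.57%) and 64 of 612 control BCL6 intervals (10.46%). Even placement over the 1400 bp would give 14.3%. Intervals listed with a single gene start had shares at that start of 12.7% in activator STAT5, 12.2% in inhibitor BCL6, 13.3% in control STAT5 and 13.2% in control BCL6. The middle of a pair and the start of a gene are different reference points, so the comparison sets like positions side by side and not the same one.

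The lower share at close divergent starts was seen in each control library. The first and second control STAT5 libraries had 7.06% and 11.01% at divergent starts, against 12.99% and 13.5% at single starts. In the first and second control BCL6 libraries it was 9.64% and 9.95%, against 13.6% and 12.8%. The 4 libraries averaged 9.42% ± 1.67 at divergent starts and 13.2% ± 0.36 at single starts (SD, n = 4). The difference was -3.81 ± 1.53 percentage points and was negative in 4 of 4 libraries (exact paired permutation test over libraries, two-sided, p = 0.125, the smallest p that 4 libraries can give). The comparison was chosen after seeing these data and pools STAT5 with BCL6 libraries, so its p-value is a description only. Promoter GC content was higher at divergent starts of either distance than over all promoters, as given above, and its part in the result was not tested.

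**Figure D2:**
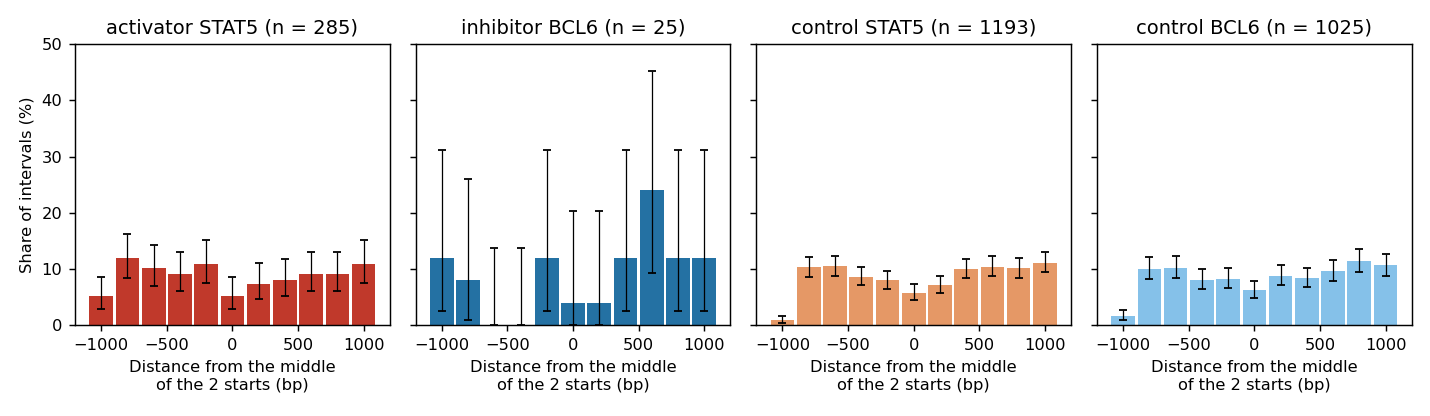
Share of intervals (%) by the distance of their midpoint from the middle of starts at most 300 bp apart (bp, bins of 200 bp, negative towards the minus-strand gene), with exact 95% intervals, for each of the 4 lists. The centre bin is low in both control lists (5.78% in control STAT5, 6.24% in control BCL6) beside 10.4% and 9.66% at 600 bp, and the 25 inhibitor BCL6 intervals are too few to show a shape.

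Per kb of sequence, control intervals at close starts were thinner between the starts than in the 700 bp on either side. Control STAT5 midpoints stood at 0.416 per kb and pair between the starts, beside 0.673 on the minus side and 0.662 on the plus side. Control BCL6 had 0.405 between the starts, 0.639 on the minus side and 0.625 on the plus side. The treated lists did not share this order on both sides. Activator STAT5 had 0.479 between the starts, 0.576 on the minus side and 0.45 on the plus side, and inhibitor BCL6, from 1, 4 and 10 midpoints, had 0.409, 0.248 and 0.621. At starts more than 1000 and at most 2000 bp apart, activator STAT5 intervals were denser between the starts (0.468) than outside them (0.367 and 0.259). Control STAT5 had 0.478 between and 0.496 and 0.614 outside at that distance, and control BCL6 had 0.502 between and 0.435 and 0.517 outside.

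Values at divergent starts were low, as in the rest of each list. The deposited value, read here as a count of reads, was 2 in 63.7% and 51.2% of activator STAT5 intervals at divergent starts (first and second library). It was 2 in 65.7%, 64.2% and 41.8% of the inhibitor BCL6 intervals, in 74.3% and 69.2% of the nonzero control STAT5 entries, and in 74.6% and 71.5% of the nonzero control BCL6 entries. The highest values at a divergent start were 9 and 20 in the activator STAT5 libraries, 4, 7 and 9 in inhibitor BCL6, 8 and 13 in control STAT5, and 7 and 12 in control BCL6. Set against all other intervals of its list, the mean value at divergent starts was 1.01 and 1.03 times as high in the activator STAT5 libraries and 0.93, 0.951 and 1.01 times as high in the inhibitor BCL6 libraries. It was 1.01 and 1.02 times as high in control STAT5 and 0.899 and 1.07 times as high in control BCL6. Control means include zero entries, which treated lists do not have. Among nonzero entries the control BCL6 means were 2.40 at divergent starts and 2.42 elsewhere in the first library, and 2.46 and 2.45 in the second, so the nonzero values differed by less than the ratios of 0.899 and 1.07.

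These ratios did not differ between groups by more than the spread between libraries. The mean ratio was 1.02 ± 0.0174 in activator STAT5 and 1.02 ± 0.00779 in control STAT5 (SD, n = 2 each; difference 0.00602, exact permutation test over libraries, two-sided, p = 1). It was 0.965 ± 0.0442 (n = 3) in inhibitor BCL6 and 0.983 ± 0.119 (n = 2) in control BCL6, a difference of -0.0181 (exact permutation p = 0.8). Control STAT5 minus control BCL6 gave 0.0322 (exact permutation p = 1). The smallest p these designs allow is 0.333, 0.2 and 0.333, and all 3 adjusted p-values (Benjamini-Hochberg) were 1.

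**Figure D3:**
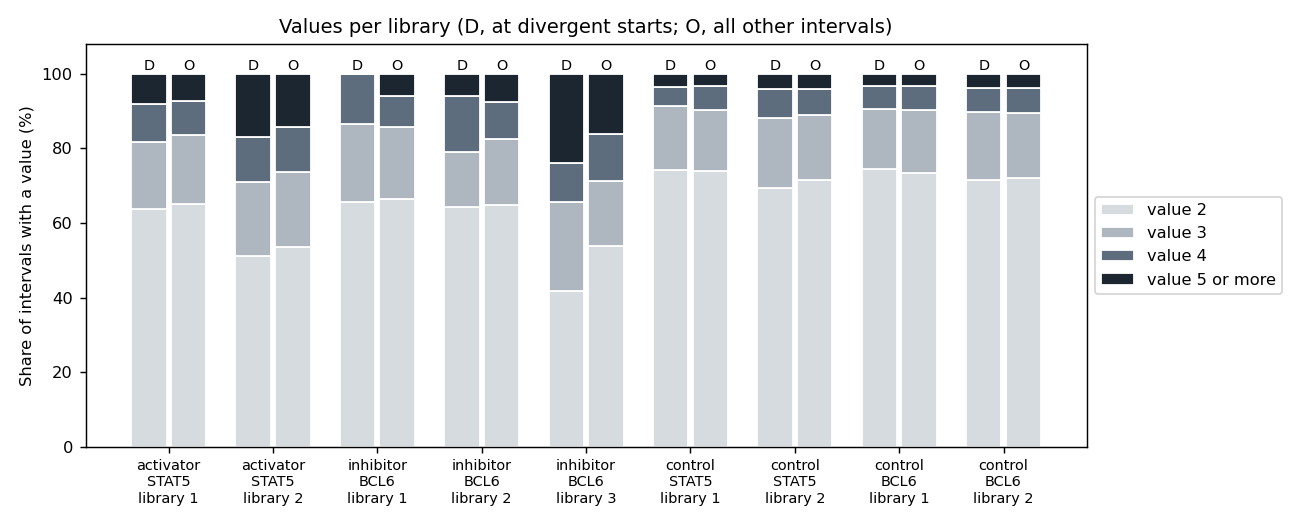
Share of intervals with a nonzero value (%) that have a value of 2, 3, 4 or at least 5, in each of the 9 libraries, for intervals at divergent starts (D) and all other intervals of the list (O). A value of 2 is the most common in every bar, and D and O differ most in the third inhibitor BCL6 library, where 41.8% and 53.7% have a value of 2.

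A value in both control libraries was uncommon at divergent starts. It was found for 346 of 3390 control STAT5 intervals (10.2%, exact 95% interval 9.21% to 11.3%), against 9.34% over the whole list. For control BCL6 it was found for 257 of 3170 (8.11%, 7.18% to 9.11%), against 9.19% over the whole list. Values of at least 3 in every library occurred in 137 of 771 activator STAT5 intervals (17.8%) against 16.9% of the list, and in 4 of 67 inhibitor BCL6 intervals (5.97%) against 6.05%. These shares stood near those of the whole lists.

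Overlap with the other factor's control peaks had exact intervals that covered the shares of the whole lists. Of the activator STAT5 intervals at divergent starts, 175 of 771 shared at least 1 bp with a control BCL6 peak (22.7%, exact 95% interval 19.8% to 25.8%), against 25.6% of all activator STAT5 intervals. They met 175 control BCL6 peaks, 0.256% of that list, of which 163 were themselves at divergent starts by the rule (5.14% of 3170). Of the inhibitor BCL6 intervals, 21 of 67 overlapped control STAT5 peaks (31.3%, 20.6% to 43.8%), against 23.7% of the list. They met 21 control STAT5 peaks, 0.0307% of that list, of which 20 were at divergent starts (0.590% of 3390). In cells with the empty vector, 1022 of 3390 control STAT5 intervals lay on a control BCL6 peak (30.1%), against 30.2% of the list. Conversely, 998 of 3170 control BCL6 intervals lay on a control STAT5 peak (31.5%), against 30.1% of that list. Median widths at divergent starts were 305 bp in both control lists, 142 bp in activator STAT5 and 78 bp in inhibitor BCL6. The control shares are thus no background for the treated lists. These shares depend on the number of control libraries. For activator STAT5 the share was 14.0% without the first control BCL6 library and 12.3% without the second. For control STAT5 it was 19.1% without the first control BCL6 library and 15.3% without the second. For inhibitor BCL6 it was 19.4% without the first control STAT5 library, and 19.4% without the second. The 2 further lists that the authors deposited, of intervals shared between a treated and a control list, held the same 175 and 21 intervals.

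**Figure D4:**
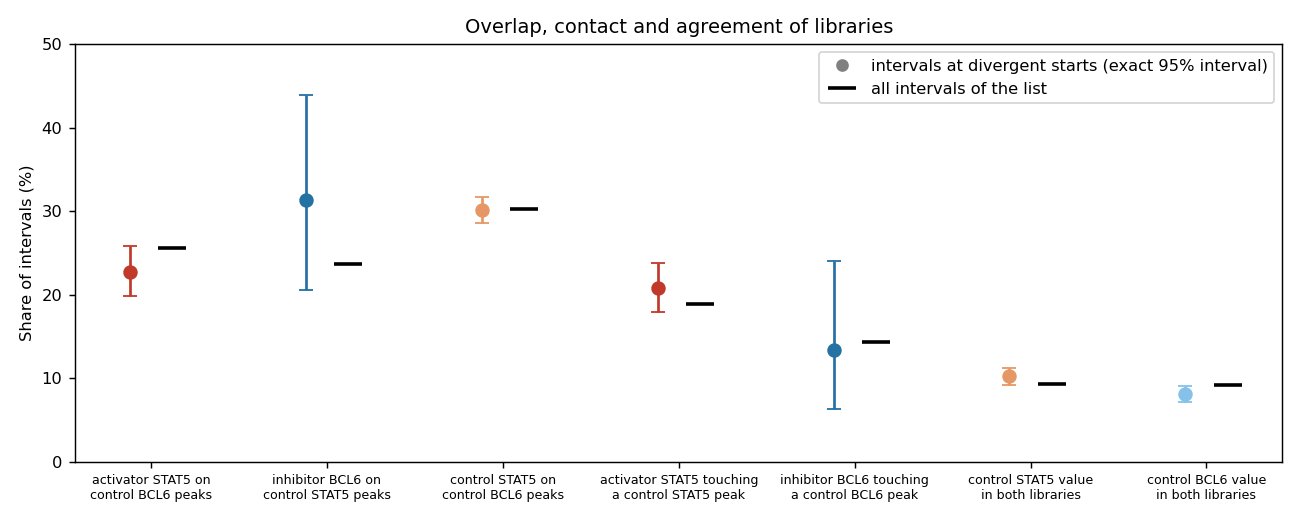
Share (%) of intervals at divergent starts (points with exact 95% intervals) and of all intervals of the same list (bars) that overlap a peak of the other factor in control cells, touch a control peak of the same antibody, or have a value in both control libraries. The bar lies inside the interval of its point except for control BCL6 values in both libraries (8.11% beside 9.19%), and the widest gap is that of inhibitor BCL6 on control STAT5 peaks, 31.3% beside 23.7%.

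No treated interval at a divergent start shared a base with a control peak of its own antibody. Many began or ended directly beside such a peak. The overlap with own control peaks was not counted over the whole lists, so its absence is not a trait of divergent starts. Whether it came from how the treated lists were made was not tested. Direct contact, with no base between, was found for 160 of 771 activator STAT5 intervals (20.8%) against 18.9% of the list. For inhibitor BCL6 it was found for 9 of 67 (13.4%) against 14.3%. Treated intervals were also narrow, with 119 of 771 activator STAT5 (15.4%, list 18.7%) and 24 of 67 inhibitor BCL6 intervals (35.8%, list 30.5%) under 50 bp wide. In activator STAT5, 87 intervals had a neighbour at the same pair with the same values in both libraries, and no inhibitor BCL6 interval did. Only 6 inhibitor BCL6 pairs held more than 1 interval, against 109 in activator STAT5, so the lists are not comparable here. The share over the whole lists was not counted.

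Gene pairs were compared between lists by the closest pair of each interval, wherever around its starts the interval lay. A shared pair is thus a looser match than a shared base, and shares over all genes were not counted. Of 2844 distinct pairs, 1109 had an interval in 1 list, 1360 in 2, 361 in 3 and 14 in all 4. Of the 645 activator STAT5 pairs, 473 were also control STAT5 pairs (73.3%, and 21.8% of those 2172), 460 were control BCL6 pairs (71.3%, and 22.0% of those 2090) and 20 were inhibitor BCL6 pairs (3.10%, and 32.8% of those 61). Among the 61 inhibitor BCL6 pairs, 54 were control STAT5 pairs (88.5%, and 2.49% of those) and 46 were control BCL6 pairs (75.4%, and 2.20%). Control STAT5 shared 1474 pairs with control BCL6 (67.9% of its own and 70.5% of theirs). At 55 of the activator STAT5 pairs (8.53%) and 3 of the inhibitor BCL6 pairs (4.92%), no control interval had the same closest pair. A control interval at the same genes with a different closest pair would be missed. These pairs are thus not shown to be particular to treated cells.

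Of the 14 pairs with an interval in all 4 lists, the 3 with a symbol on both sides are described first. CINP codes for a CDK2-binding protein that acts in replication and damage signalling, and TECPR2 for an autophagy protein; their starts lie 26 bp apart. The activator STAT5 interval (chr14:102829028-102829159, GRCh37) had values of 2 and 2 and began 251 bp before the TECPR2 start, on the CINP side. The inhibitor BCL6 interval (29 bp wide) had 2, 2 and 2 and lay 801 bp into TECPR2. The control STAT5 interval had 0 and 2, and 2 control BCL6 intervals had 0 and 2 and 2 and 0, all on the CINP side. The treated intervals thus stood on opposite sides of the starts and shared no base.

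DHX57, a helicase of the DEAH family, and MORN2, a small protein of MORN repeats, have starts 29 bp apart. Activator STAT5 intervals at chr2:39103537-39103601 and chr2:39103885-39103909 each had values of 4 and 18 and stood directly on either side of a control STAT5 peak (39103602 to 39103884) with values of 0 and 3. Both treated intervals carried the same pair of values although they are 65 and 25 bp wide, so the values were not independent. The inhibitor BCL6 interval (39103645 to 39103673) had 3, 2 and 4 and lay wholly within the same control STAT5 peak. Control BCL6 intervals had 0 and 5, 2 and 0, and 0 and 2.

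FBXO48, an F-box protein, and APLF, a histone chaperone of double-strand break repair, have starts 304 bp apart. The activator STAT5 interval (chr2:68694824-68695419) had 5 and 5, began 130 bp into APLF and, at 596 bp, was the widest at a divergent start in that list. The inhibitor BCL6 interval (68693746 to 68693846) had 3, 4 and 3 and lay on the FBXO48 side. Control STAT5 (2 and 0) and control BCL6 (0 and 2) intervals lay on the FBXO48 side too, and the activator STAT5 interval shared no base with any of them. Both this pair and DHX57/MORN2 lie on chromosome 2 between 30 and 75 Mb, a stretch with 2.98% of activator STAT5, 13.4% of inhibitor BCL6, 1.95% of control STAT5 and 2.40% of control BCL6 intervals at divergent starts, against 4.47%, 9.26%, 2.63% and 2.91% of the whole lists.

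**Figure D5:**
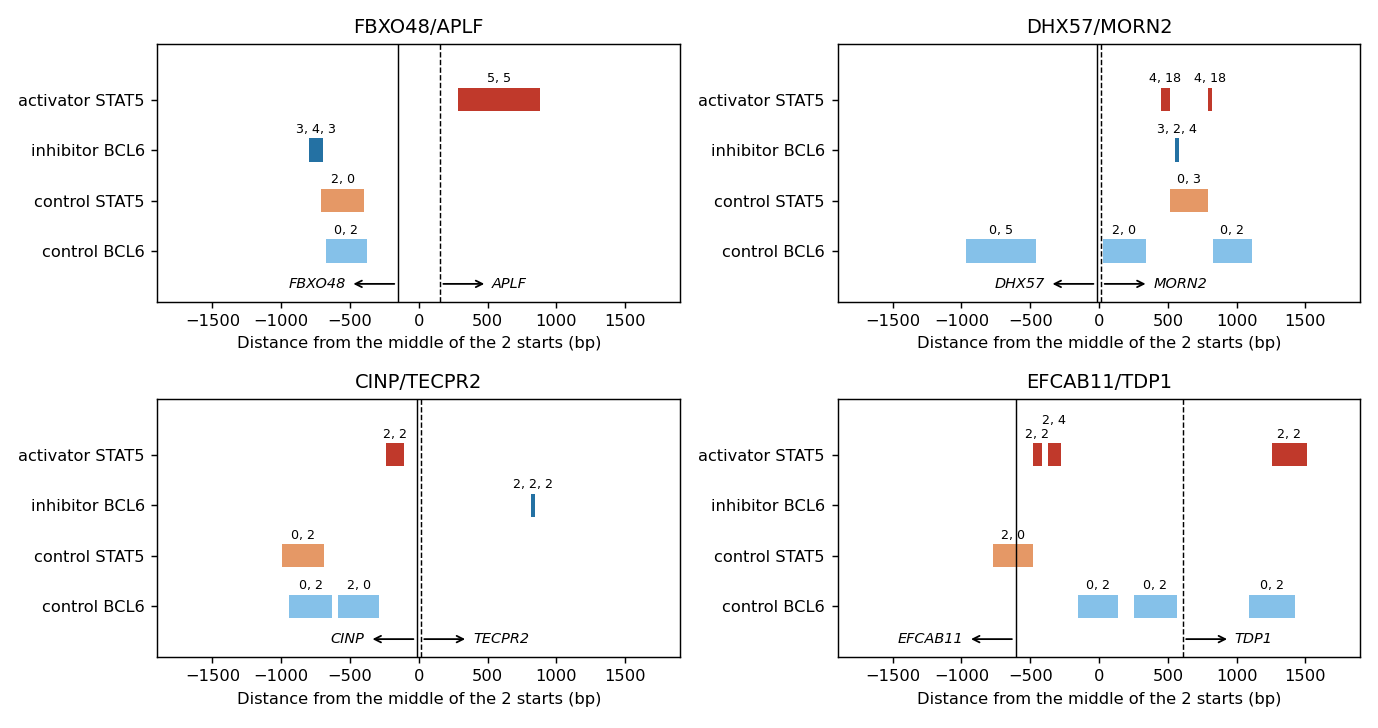
Intervals of the 4 lists at 4 gene pairs, by distance from the middle of the starts (bp); the solid line is the minus-strand start, the dashed line the plus-strand start, and the numbers above a bar are the values in each library. At FBXO48/APLF the activator STAT5 interval (5 and 5) lies on the APLF side and the other 3 lists on the FBXO48 side, and at DHX57/MORN2 the activator STAT5 intervals flank a control STAT5 peak.

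The remaining pairs in all 4 lists had a gene without a symbol on 1 or both sides. At VAMP4, a SNARE protein of the trans-Golgi network, the activator STAT5 values were 2 and 5 and the inhibitor BCL6 values 2, 3 and 7. At TAF12, a subunit of the general factor TFIID, they were 2 and 3 beside 3, 2 and 2, again with activator STAT5 before inhibitor BCL6. OTX1, a homeobox gene of the developing head, had activator STAT5 values of 5 and 10, and 2 inhibitor BCL6 intervals of 2, 4 and 2 and of 2, 4 and 6. Its control STAT5 interval had 0 and 2, and its control BCL6 interval 2 and 0. C10orf2, which codes for the mitochondrial helicase Twinkle, had activator STAT5 values of 2 and 6 and inhibitor BCL6 values of 3, 3 and 5. TROVE2, which codes for the Ro60 RNA-binding protein, had activator STAT5 values of 3 and 2 and inhibitor BCL6 values of 2, 7 and 6. SNORD38A, a small nucleolar RNA, had the lowest value of 2 in every treated library.

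Among the activator STAT5 intervals, the 10 pairs with the highest lower value included EPCAM and HNF4A. Their values chose them and are given as a description. EPCAM, a surface protein of colon epithelium, had 4 and 18 at chr2:47572403-47572892, 105 bp into the gene. That interval shared 123 bp with a control BCL6 peak of 0 and 3. A further control BCL6 interval at EPCAM had 0 and 4, and its control STAT5 interval had 2 and 2. EPCAM, like OTX1, FBXO48/APLF and DHX57/MORN2 among these 10 pairs, lies in the stretch of chromosome 2 described above. HNF4A, a transcription factor of gut and liver epithelium, had 4 and 9 at chr20:42985120-42985518, 779 bp into the gene. Control intervals at HNF4A had 2 and 0 and 3 and 0 in STAT5, and 2 and 0 and 0 and 3 in BCL6. LRIG2, a membrane protein that modulates growth factor receptors, had 6 and 5, and its control BCL6 interval had 0 and 2. RPS15A, a protein of the small ribosomal subunit, had 5 and 6. The highest pair of values, 8 and 20, stood at the pseudogene MLLT10P1 on chromosome 20, in an interval of 27 bp. Reads from a pseudogene can be shared with its parent gene, so that value is uncertain. ZBTB37, a zinc finger gene, had 6 and 5 in an interval of 22 bp, and RNA5SP123, a pseudogene of 5S ribosomal RNA, had 6 and 5. The second library was the higher one at OTX1, EPCAM, HNF4A, MLLT10P1 and RPS15A.

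In inhibitor BCL6 no lower value at a divergent start exceeded 4. EHD1, an endocytic recycling protein, led with 4, 4 and 5 at chr11:64656820-64657161, and its control intervals had 0 and 3 in STAT5 and 2 and 0 in BCL6. GIT2, a GTPase-activating protein for ARF proteins that joins complexes with PAK kinases, shares its pair with ANKRD13A, a ubiquitin-binding protein of endosomes. That pair had 4, 3 and 3 in inhibitor BCL6. Its activator STAT5 interval had 2 and 2, as did its control STAT5 interval. TAX1BP3, a PDZ domain protein, and EMC6, a subunit of the endoplasmic reticulum membrane complex, had 4, 2 and 7 in inhibitor BCL6 (3572580 to 3572858 on chromosome 17) and 2 and 2 in an activator STAT5 interval (3572598 to 3572810) that lay wholly within it. PCYOX1, an enzyme that degrades prenylated cysteines, had 2, 5 and 5. The third library was the highest or tied for the highest at EHD1, C10orf2, TAX1BP3, VAMP4, OTX1 and PCYOX1, and lower than another library at FBXO48/APLF, GIT2/ANKRD13A and TROVE2.

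DNA repair genes are common at divergent starts, and the series title names the DNA damage response. Of a list of 113 repair genes, 17 of the 46 with any activator STAT5 interval had one at divergent starts (37.0%), beside 14.3% of all protein-coding symbols in that list. In inhibitor BCL6 it was 0 of 5, beside 10.3%; APLF, described above with an inhibitor BCL6 interval, is not on the list of repair genes. In cells with the empty vector, 33 repair genes (32.7%) were at divergent starts in control STAT5, beside 15.5% of coding symbols, and 36 (37.5%) in control BCL6, beside 15.1%. The share of repair genes at divergent starts thus lay above that of coding genes in activator STAT5, control STAT5 and control BCL6 alike, with no test of the difference. In double-strand break repair, RAD51B, a recombination protein, had 4 and 2 in activator STAT5. BRCA2, a mediator of homologous recombination, had 2 and 2, and MDC1, a mediator of damage signalling, had 2 and 2. ATR, the kinase that answers replication stress, had 3 and 2, and RPA1, the single-strand binding protein, had 2 and 7 in an interval of 18 bp that began directly after a control STAT5 peak of 0 and 2. In the Fanconi pathway of crosslink repair, FANCD2, the protein that is ubiquitinated on activation, had 2 and 2, and FANCM, a DNA translocase, had 3 and 2 at each of 2 neighbouring intervals. Starts lay 3191 bp apart at RAD51B, 3521 bp at BRCA2, 2313 bp at MDC1, 2085 bp at ATR and 4298 bp at FANCM. These distances exceed the 1000 bp of a bidirectional promoter, whereas RPA1 had 97 bp and FANCD2 50 bp. In RefSeq the starts of BRCA2 and its partner ZAR1L lie 145 bp apart, so the distance depends on the annotation.

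In base excision and single-strand break repair, XRCC1, the scaffold protein, had 2 and 6 in activator STAT5, within a control BCL6 peak. FEN1, the flap endonuclease, had 2 and 2 at 2 intervals beside TMEM258. APTX, which removes AMP from blocked DNA ends, had 2 and 5 at an interval that ended 1 base before a control STAT5 peak of 0 and 5, and its partner DNAJA1 codes for a chaperone of the HSP40 family. MPG, a DNA glycosylase, had 2 and 3 in an interval (chr16:126562-126664) that exactly filled the gap between control STAT5 peaks of 0 and 2 (126236 to 126561) and 2 and 0 (126665 to 126963). TDP1, which removes topoisomerase I from DNA, had 2 and 2, 2 and 4, and 2 and 2 at 3 activator STAT5 intervals, and TDP2, which acts on topoisomerase II, had 2 and 2 beside ACOT13. In nucleotide excision repair, GTF2H3, a subunit of TFIIH, had 2 and 8 at chr12:124118684-124118934, 303 bp into the gene, whereas the window printed above ends 50 bases after the RefSeq start. Its control BCL6 interval (2 and 0) lay on the EIF2B1 side. ERCC8, which acts in transcription-coupled repair, had 2 and 2 in an interval that began 724 bp into its partner NDUFAF2. Starts lay 1615 bp apart at XRCC1 and 1214 bp at TDP1, and at most 653 bp at the other genes of this paragraph.

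Well-known divergent pairs were mostly seen in the control lists, which hold more pairs of any kind. Control STAT5 has 2172 and control BCL6 2090 pairs, against 645 in activator STAT5 and 61 in inhibitor BCL6. The count of known pairs thus does not compare treated with control cells. Of 22 such pairs searched, 9 were found in at least 1 list. SIRT3, a mitochondrial deacetylase, and PSMD13, a proteasome subunit, had 2 and 4 in activator STAT5. Control STAT5 intervals there had 2 and 0, 0 and 3, and 0 and 2, and control BCL6 intervals had 0 and 2 and 3 and 0. HAND2, a heart and limb transcription factor, and its antisense RNA had 3 and 3 in activator STAT5. BRCA1 and NBR2 were in the control STAT5 list only, with 2 and 0 and 0 and 4 at 2 intervals, and OSGEP and APEX1, the base excision endonuclease, were there only with 0 and 2 at each of 2 intervals. NPAT/ATM (0 and 2) and XPO5/POLH (0 and 2, and 0 and 3) were in control BCL6 only. PPAT/PAICS, both of purine synthesis, had 0 and 3 in control STAT5 and 0 and 2 in control BCL6, and PMS2/AIMP2 had 0 and 3 in control STAT5 and 0 and 2 in control BCL6. With values this low, being in 1 control list and not in the other does not show a difference between the factors.

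Histone genes, whose H2A and H2B members often form divergent pairs, had 5 of the 771 activator STAT5 intervals at divergent starts (0.649%, at 4 pairs), beside 0.164% of all activator STAT5 intervals. They had 0 of 67 in inhibitor BCL6, where the whole list held 0 as well. In cells with the empty vector they had 28 of 3390 control STAT5 intervals (0.826%, at 14 pairs), beside 0.136% of that list, and 20 of 3170 control BCL6 intervals (0.631%, at 10 pairs), beside 0.121%. HIST1H2BJ/HIST1H2AG had 2 and 3 in activator STAT5, in an interval (27099567 to 27099733 on chromosome 6) that ended 1 base before a control STAT5 peak of 0 and 3. Its 3 further control STAT5 intervals had 4 and 2, 5 and 0, and 0 and 2, and its control BCL6 intervals had 0 and 2 at each of 2. At HIST1H2BK the activator STAT5 interval had 7 and 3, beside control STAT5 intervals of 4 and 3, 0 and 2, and 4 and 0. HIST1H1A had 4 and 3 and HIST1H2AD had 2 and 2 and 2 and 4 in activator STAT5. Histone genes of a family resemble each other in sequence, so reads may have been split between some of them. This was not tested, and these values are uncertain.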

How the data were processed

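The authors deposited 6 lists of ChIP-seq intervals with a whole-number value per library, each interval's width, and its distance from Ensembl gene starts. Coordinates are of GRCh37, and CASAVA 1.8.2 and Bowtie 0.12.7 were used, per the submitters' processing notes. The role of each, and how peaks were called, were not given in the labels or headers. The file header does not name the value, which was read as a count of reads as deposited; every nonzero value is at least 2. Because 2 file names and their columns disagree on the condition, lists are called by the libraries in their columns. Of 14 libraries in 6 groups, 9 were analysed, and 5 (activator BCL6 and inhibitor STAT5) were not analysed here. Sequencing depth is unknown. The labels do not say that replicates were separate cultures, so p-values measure a spread that may be technical.

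Each distinct interval was counted once, and overlap meant at least 1 shared bp. The start of a gene was its end coordinate on the minus strand and its first coordinate on the plus strand. Intervals of shares are 95% Clopper-Pearson (exact) and cover counting error only. Value ratios were compared by exact permutation over libraries (SciPy 1.17.1), with Benjamini-Hochberg adjustment over 3 comparisons. The search for members was tested on simulated lists. Gene types and promoters came from RefSeq tables of GRCh38.p14; of 3689 symbols, 3355 matched directly and 322 through an older name. Deposited coordinates were not converted. Pairs were named by rule: 22 well-known divergent pairs, the 10 pairs per treated list with the highest lowest value, the 10 closest pairs in all 4 lists, pairs in a treated list with a gene of the repair list, histone pairs, and the smallest and largest distances. From these, examples were chosen by gene role. Some named genes are not reported here. Members and lists were chosen with earlier results of these data known. The comparison of the centre of close starts with single starts was chosen after seeing the data. Alternatives tried were the distance limit, touching the stretch between starts, named genes, value minimums, the overlap required and leaving out each library. Python 3.11.15, pandas 2.3.3, NumPy 2.4.6 and Matplotlib 3.10.9 were used.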

Additional observations from a re-analysis of the deposited data

How the results depend on the processing

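Of the alternative values, 55 stayed within their error of the reported value, 41 moved beyond it and 5 changed sign. Some of the 55 could not move, because every treated interval has a value of at least 2 in each of its libraries. Leaving out a treated library, or asking for such values, thus returned the same 5.49% in activator STAT5 and 4.06% in inhibitor BCL6. The count of 55 is therefore not a measure of robustness. With starts at most 1000 bp apart the shares of the lists at divergent starts were 3.08% (activator STAT5), 2.18% (inhibitor BCL6), 2.63% (control STAT5) and 2.25% (control BCL6). Requiring the interval to touch the stretch between the starts gave 2.53%, 1.76%, 2.44% and 2.46% in that order of lists, and genes with a symbol gave 2.81%, 1.76%, 2.38% and 2.26%. Each of these narrows the rule by construction. A value of at least 3 gave 5.18% in control STAT5, and a value in every library 5.42% in control STAT5 and 4.09% in control BCL6. Leaving out a library gave 4.22% to 4.92% in control BCL6. Values of at least 3 in both libraries left 1.03% of control STAT5 and 1.01% of control BCL6.

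On control BCL6 peaks, activator STAT5 overlap was 16.9% with 50% of the interval covered, 3.37% on peaks with a value in every library, and 12.3% to 14.0% leaving out a control BCL6 library. Control STAT5 overlap was 16.0%, 3.75% and 15.3% to 19.1% under the same settings. Inhibitor BCL6 overlap with control STAT5 peaks was 7.46% on peaks with a value in every library and 19.4% leaving out either control STAT5 library. Median distances were 876, 829, 1029 and 1278 bp (activator STAT5, inhibitor BCL6, control STAT5, control BCL6) with the largest distance in place of the closest pair, and 407, 285, 480 and 612 bp among genes with a symbol. Mean value ratios moved to 1.04 without values above 20 in activator STAT5, and with a geometric mean to 1.01 in inhibitor BCL6 and 1.005 in control STAT5.

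Differences in value ratio that changed sign were small beside the spread between libraries. Activator minus control STAT5 ranged over -0.0063 to 0.0183 leaving out 1 library, the lowest without the second activator STAT5 library. Inhibitor minus control BCL6 was 0.0164 with a geometric mean, 0.0176 without values above 20 and -0.102 to 0.0661 leaving out 1 library, the highest without the second control BCL6 library. Control STAT5 minus control BCL6 ranged over -0.052 to 0.116, the lowest without the first control BCL6 library. Alternatives that left out chromosome 2 from 30 to 75 Mb, intervals under 50 bp, intervals touching a control peak, or 1 library in the value comparisons were chosen after seeing the data. No paired analysis was possible because the labels give each library a number of its own, which the groups do not share.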

Other observations

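Control intervals at divergent starts with the highest lower value over both libraries were looked up after their values were seen. In control STAT5, SLC25A45/FRMD8 had 7 and 6, CDCA3/USP5 had 7 and 5, and SRSF7/GEMIN6, a splicing factor and a subunit of the SMN complex with starts 41 bp apart, had 5 and 8. In control BCL6, the pseudogene RPL21P24 had 7 and 6, UBE2J2, a ubiquitin-conjugating enzyme, had 5 and 5, and TTC41P/HSP90B1, which holds the endoplasmic reticulum chaperone GRP94, had 4 and 4. These intervals were wide for their lists: 819 bp at SLC25A45/FRMD8 and 1096 bp at RPL21P24, beside a median of 305 bp at divergent starts in each control list.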
